A study of Homo sapiens with 4 samples.

Results

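Broad anchors are the regions of at least 3000 bp among the anchors of SMC1 ChIA-PET interactions in Kelly cells. They were chosen on width alone, from the union of the anchors listed in the shLUC and shBORIS tables, and number 818 of 39507, or 2.07%. Kelly is a neuroblastoma cell line. All libraries came from a derivative with resistance to TAE684, an inhibitor of the receptor tyrosine kinase ALK, kept in medium with 1 µM of the inhibitor. Both groups received virus with polybrene for 24 h and puromycin for 48 h, shLUC with the control construct and shBORIS with a construct against BORIS, 2 libraries each, and the comparison asks how cohesin contacts differ between them. Each group was deposited as 1 table that pools its 2 libraries, so no value below has a replicate error, and tests compare 2 pools. The tables describe 1 cell line after a short infection, and BORIS levels were not analysed here.

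SMC1 is a subunit of cohesin, the ring complex that holds stretches of DNA together and extrudes chromatin loops. Loops tend to stop where CTCF, a zinc-finger insulator protein, is bound, and cohesin also collects at active promoters and enhancers. BORIS, or CTCFL, is the CTCF paralog normally made in the male germ line and recognises much the same DNA motif. In ChIA-PET the DNA fragments held by the precipitated protein are ligated, and each ligated pair is read as a paired-end tag (PET). The regions where PET ends pile up are the anchors, so the width of an anchor and its number of PETs come from the same reads. Differences in PETs between broad and narrower anchors are therefore given as descriptions, without a test.

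Genes at some of the broadest anchors are named as placed from the known hg19 map and not from an annotation. The broadest of all, chr10:8086619-8100139 with 13521 bp, covers the start of GATA3, a zinc-finger factor of the sympathetic lineage. It is followed by chr1:244209580-244222793 at ZBTB18, a transcriptional repressor, and chr9:136738021-136750580 within VAV2, a guanine nucleotide exchange factor. Among the 5 broadest is also chr17:70111550-70122491, which covers SOX9, a factor of neural crest and cartilage. Further wide anchors, picked after their values were seen because they lie at transcriptional regulators, were chr3:193850178-193860661 at the Notch target HES1, chr3:128203193-128213627 at GATA2, chr17:59470525-59479819 at TBX2, chr11:71947533-71956807 at PHOX2A and chr2:8816039-8824074 at ID2, an inhibitor of basic helix-loop-helix factors. No test of which genes lie at broad anchors was run.

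Sequence at such gene starts is shown for HES1, PHOX2A and ID2, which have a single start each in the RefSeq promoter table. Of 9 genes looked up, 6 matched by symbol, with 14 promoters. The 250 bases before the start are printed on the strand of the gene, from RefSeq on GRCh38.p14, with CpG dinucleotides in capitals. They lie at chr3:194135898-194136147 on the plus strand for HES1, at chr11:72244177-72244426 on the minus strand for PHOX2A and at chr2:8681806-8682055 on the plus strand for ID2.
HES1: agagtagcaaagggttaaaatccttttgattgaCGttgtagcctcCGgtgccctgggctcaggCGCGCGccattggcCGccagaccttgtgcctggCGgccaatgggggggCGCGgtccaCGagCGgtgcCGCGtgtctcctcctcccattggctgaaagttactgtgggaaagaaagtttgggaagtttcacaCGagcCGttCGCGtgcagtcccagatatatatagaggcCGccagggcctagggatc
PHOX2A: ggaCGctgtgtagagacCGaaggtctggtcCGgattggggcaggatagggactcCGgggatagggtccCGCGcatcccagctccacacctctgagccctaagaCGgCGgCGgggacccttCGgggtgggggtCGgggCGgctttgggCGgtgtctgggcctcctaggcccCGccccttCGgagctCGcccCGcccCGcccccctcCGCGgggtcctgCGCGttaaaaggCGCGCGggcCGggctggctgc
ID2: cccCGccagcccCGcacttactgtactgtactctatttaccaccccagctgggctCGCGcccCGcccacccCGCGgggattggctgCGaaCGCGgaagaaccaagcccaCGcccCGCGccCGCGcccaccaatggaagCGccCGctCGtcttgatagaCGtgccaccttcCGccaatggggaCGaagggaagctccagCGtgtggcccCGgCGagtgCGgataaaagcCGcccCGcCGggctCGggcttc
The motif counted is the dinucleotide CG, which reads the same on both strands. HES1 holds 18 of them, PHOX2A 26 and ID2 29, against a median of 11 (quartiles 3 and 23) over 35116 RefSeq promoters of the same length, of which 93.9% hold at least 1. So HES1 lies between the median and the upper quartile, and PHOX2A and ID2 lie above that quartile. Whether these bases fall inside the anchors was not checked, since the anchors are on another build.

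Broad anchors took up 6.55% of the summed width of all anchors, 3331.7 of 50856.1 kb. Their median width was 3622.5 bp (quartiles 3244.25 and 4330.75), against 1163 bp for narrower anchors. Most were near the limit, with 550 of 3 to 4 kb, 140 of 4 to 5 kb and 128 of 5 kb or more, beside 2346 anchors of 2 to 3 kb just below it. The 3 anchors just inside the limit were chr17:56159835-56162834 and chr20:34203276-34206275 with 3000 bp and chr10:77794036-77797036 with 3001 bp, with 22, 21 and 32 intrachromosomal PETs in shLUC and 15, 15 and 41 in shBORIS. The 3 just outside were chr1:204775386-204778382, chr1:10948012-10951007 and chr17:17257649-17260643, of 2997, 2996 and 2995 bp, with 90, 21 and 26 PETs in shLUC and 112, 37 and 45 in shBORIS. The anchors listed on either side of the limit thus had overlapping counts, and a step at the limit was not tested. In all, 817 broad anchors occurred in both tables and 1 in shBORIS alone, and 2 lay on unplaced contigs.

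Broad anchors were unevenly placed along the genome. They made up 5.71% of the anchors of chromosome 9 (76 of 1331), 5.46% of chromosome 20 (91 of 1666) and 4.74% of chromosome 17 (114 of 2406). At the other end they made up 0.163% on chromosome X (1 of 615), 0.339% on chromosome 16 (3 of 885) and 0.355% on chromosome 22 (3 of 844). Interchromosomal PETs per kb of the narrower anchors had a median of 16.9 over both tables on chromosome 9, 18.3 on 20 and 18.8 on 17, against 17.6 on X, 18.9 on 16 and 19.4 on 22. Of these 6 chromosomes, the 3 rich in broad anchors did not have the higher interchromosomal density at narrower anchors. Intrachromosomal PETs per kb of the narrower anchors had medians of 8.74, 9.92 and 11.3 on chromosomes 9, 20 and 17. On X, 16 and 22 these were 4.07, 6.12 and 8.77, so that this density was mostly higher on the chromosomes rich in broad anchors.

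They also lay close together. Another broad anchor was found within 100 kb of 386 of the 818 (47.2%), and within that distance of 13.0% of narrower anchors. The median gap to the nearest broad anchor was 128 kb for broad and 1421 kb for narrower anchors, and that to the nearest anchor of any width was 2.36 kb and 11.7 kb. Of 2767 windows of 1 Mb with an anchor, 28 held 5 or more broad anchors, 243 in all. The densest, at 71 to 72 Mb of chromosome 17 around SDK2, which encodes a cell adhesion protein, held 23 broad anchors of 131. It was followed by 62 to 63 Mb of chromosome 20 with 22 and by 136 to 137 Mb and 139 to 140 Mb of chromosome 9 with 17 and 15.

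The shLUC table held 434975 PETs, of which 146140 were intrachromosomal, and in shBORIS 449979 were listed, 163041 of them intrachromosomal. Ratios below are scaled, that is, the share of a table's intrachromosomal (or interchromosomal) PETs in shBORIS is divided by that in shLUC, with exact 95% intervals that cover counting error only.

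Each broad anchor had a median of 29 intrachromosomal PETs in shLUC (range 0 to 203) and 34 in shBORIS (1 to 298), and a narrower anchor 4 and 5. Part of that gap is width itself. Per kb of anchor the medians were 7.65 in shLUC (quartiles 4.64 and 12.1) and 8.89 in shBORIS (5.34 and 14.3), against 3.89 and 4.15 for narrower anchors. The density climbed steeply among the narrower anchors and little among the broad ones. In shLUC it was 2.44 per kb under 1 kb, 4.56 at 1 to 2 kb, 6.78 at 2 to 3 kb, 7.53 at 3 to 4 kb, 7.79 at 4 to 5 kb and 8.05 from 5 kb, and in shBORIS it ran from 2.61 to 9.42. Across the 818 broad anchors Spearman's correlation of width with PETs per kb was 0.0508 over both tables, and with the PET number 0.348. These correlations describe anchors of the same libraries and carry no test.

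**Figure D1:**
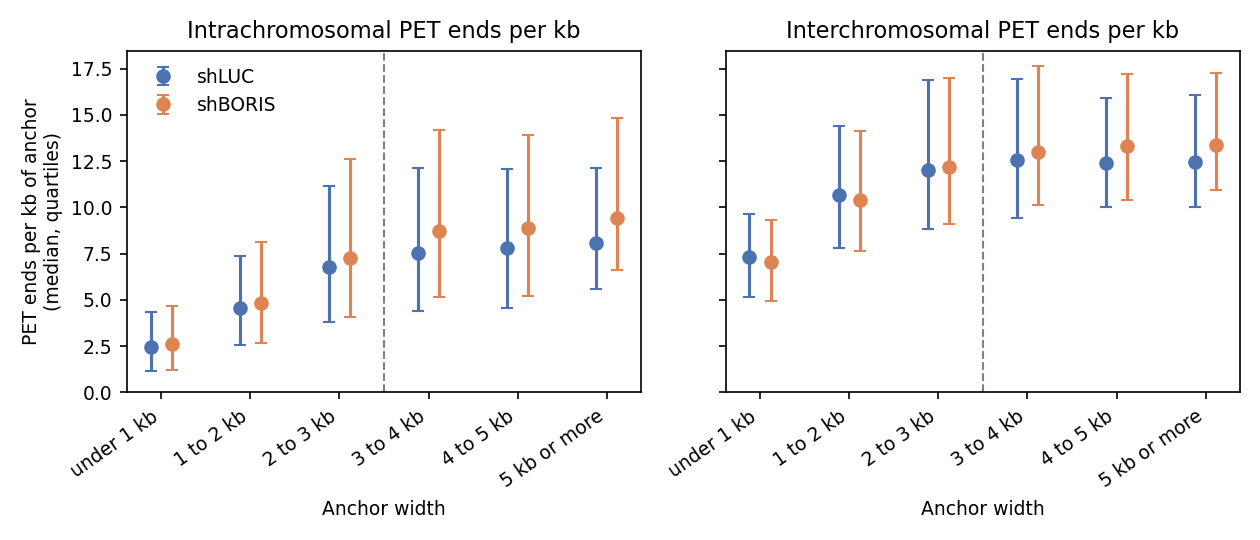
Median PET ends per kb of anchor by width class, intrachromosomal on the left and interchromosomal on the right, for shLUC (blue) and shBORIS (orange), with bars from the first to the third quartile and a dashed line at 3 kb. The intrachromosomal medians climb from 2.44 per kb under 1 kb to 6.78 at 2 to 3 kb in shLUC and then only to 8.05, and those of shBORIS from 2.61 to 9.42.

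Interchromosomal PETs, most of which are taken to be random ligations in such data, were dense at broad anchors too. Their median was 12.4 per kb in shLUC and 13.1 in shBORIS, against 9.51 and 9.27 at narrower anchors. The surplus at broad anchors was larger for intrachromosomal PETs, as the number of these per interchromosomal one was 0.661 in shLUC and 0.741 in shBORIS at broad anchors and 0.493 and 0.552 at narrower ones. Among broad anchors the densities of the 2 kinds went together, with Spearman's correlation of 0.683 over 818 anchors that share libraries and width.

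The density varied widely from one broad anchor to another. The densest over both tables summed, chr15:78972376-78975497, had 33.6 intrachromosomal PETs per kb in shLUC and 59.3 in shBORIS, and 73 of its 105 PETs in shLUC and 114 of 185 in shBORIS joined the narrower anchor chr15:78963240-78965595. Next came chr9:139381830-139384881, just beyond the 3′ end of the receptor gene NOTCH1, with 39.0 and 41.9 per kb, the highest density in shLUC. At the lower end, the contig anchor 83811 to 90476 of 17_gl000205_random had 1 PET in each table, 0.150 per kb, but 166 and 180 interchromosomal PETs. On a contig only PETs within it count as intrachromosomal, and this anchor had 1 such partner in each table. Its counts are therefore not comparable with those of the densest anchor, which had 57 and 82 interchromosomal PETs. The lowest density over both tables on a named chromosome was that of chr6:82460246-82464450. This anchor had 4 intrachromosomal PETs in each table and 56 and 37 interchromosomal ones.

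Most broad anchors took part in called interactions, that is, intrachromosomal pairs of 3 PETs or more whose Bayes probability was 0.9 or higher. At least 1 call was found at 732 (89.5%, exact interval 87.2 to 91.5) in shLUC and 757 (92.5%, 90.5 to 94.2) in shBORIS, against 33.1% and 35.4% of narrower anchors. Of broad anchors 232 (28.4%) and 299 (36.6%) had 5 or more calls, against 0.628% and 1.15%. Anchors with 10 or more calls were broad in 26 of 29 cases in shLUC and 51 of 59 in shBORIS. The number of distinct intrachromosomal partners, called or not, had a median of 14 in shLUC and 16 in shBORIS, and 3 in both tables for narrower anchors.

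The anchor with the most calls was chr17:71634009-71644664 at the start of SDK2, with 16 calls in shLUC and 22 in shBORIS, 14 of them in both. Its PETs numbered 203 and 298, the highest count of any broad anchor in either table, and its strongest partner was the broad anchor chr17:71577344-71586974 within the same gene, with 39 and 57 PETs. The anchor chr2:43450434-43459284 at ZFP36L2, which encodes a protein that promotes mRNA decay, had 15 and 14 calls from 154 and 132 PETs. Its strongest partners were narrower ones, chr2:43250625-43253605 at 203 kb with 23 and 13 PETs and chr2:43200554-43203288 at 253 kb with 20 and 14. The anchor chr7:132155904-132162922 within PLXNA4, a receptor for semaphorin guidance cues, had 12 and 15 calls, and chr9:136854545-136861071 at the start of VAV2 had 13 and 14. The strongest partners of these anchors thus included both broad and narrower ones.

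At the transcription factors named above the number of calls varied widely. The SOX9 anchor had 11 calls in shLUC and 12 in shBORIS from 113 and 124 PETs, and that at HES1 8 and 14 from 87 and 132. PHOX2A had 8 and 9 calls from 72 and 73 PETs and GATA2 10 and 13 from 103 and 149. The GATA3 anchor, though broadest, had 6 and 2 calls from 60 and 41 PETs, and ID2 had 1 and 4 from 30 and 55. For none of these anchors did the PETs pass the anchor test described below, and the smallest of their adjusted p-values by Fisher's exact test was that of GATA3 at 0.611.

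The 34 broad anchors without a call in either table had few contacts within their chromosome. They had a median of 17 intrachromosomal PETs over both tables, against 68.5 for the 784 with a call, but a median of 72 interchromosomal PETs against 103. Their median distance to the next broad anchor was 1925 kb, against 104 kb. Since calls are made from intrachromosomal PETs, the first of these values is no independent one.

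Pairs of broad anchors were few but held many PETs each, 4000 on 952 pairs in shLUC and 5088 on 1002 in shBORIS, against 119717 on 74744 and 131835 on 79805 between narrower anchors. Broad pairs held 2.74% of the intrachromosomal PETs of shLUC (2.65 to 2.82) and 3.12% of those of shBORIS (3.04 to 3.21). Of interchromosomal PETs the same class had 0.627% and 0.728%. Pairs of a broad with a narrower anchor held 15.3% and 16.02% of intrachromosomal and 14.7% and 15.6% of interchromosomal PETs. The share of contacts among broad anchors was thus higher within chromosomes than between them in both tables, and that of broad-to-narrower contacts was close in both kinds of PET. Another broad anchor lay within 100 kb of 47.2% of broad and 13.0% of narrower anchors, and shares at equal placement were not compared.

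**Figure D2:**
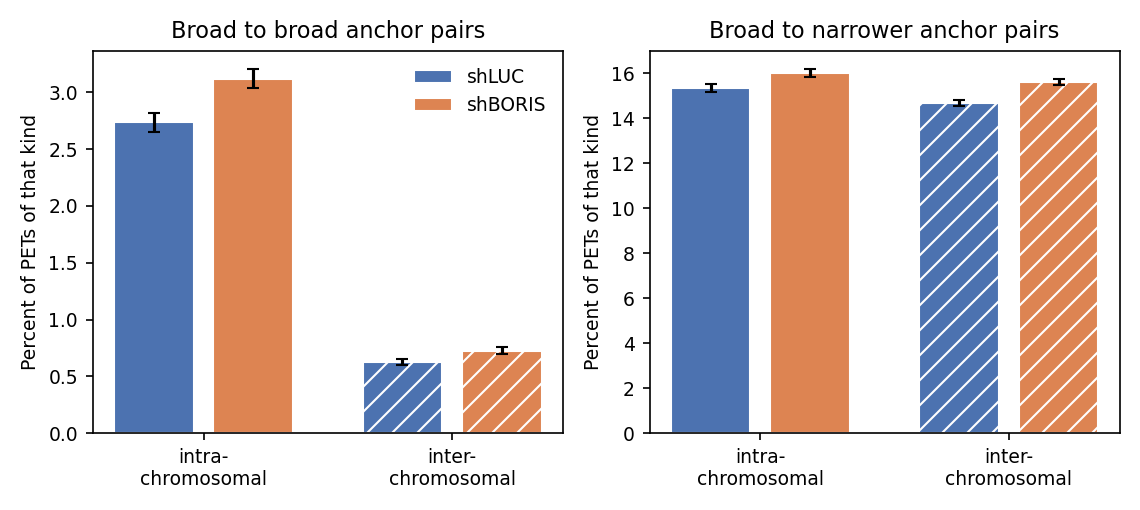
Percent of PETs that join a pair of broad anchors (left) and a broad with a narrower anchor (right), as a share of the intrachromosomal (plain bars) or interchromosomal PETs (hatched bars) of shLUC (blue) and shBORIS (orange), with exact 95% intervals. The broad-to-broad share is 2.74% and 3.12% of intrachromosomal against 0.627% and 0.728% of interchromosomal PETs, and the broad-to-narrower share lies between 14.7% and 16.02% in all bars.

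Calls between broad anchors numbered 381 in shLUC and 456 in shBORIS, of 2373 and 2881 calls with a broad anchor at either end, which were 21.1% and 22.0% of all calls. Of the call ends that left a broad anchor 27.7% and 27.3% went to a broad partner, and of those that left a narrower anchor 10.1% and 10.6%. At least 1 broad partner by call was found for 369 broad anchors in shLUC (45.1%) and 411 in shBORIS (50.2%). The share grew with the strength of the call, since 80 of 140 calls with 20 or more PETs in shLUC and 114 of 188 in shBORIS had a broad anchor, and with 40 or more PETs 11 of 12 and 23 of 27. Of the PETs between broad anchors 82.4% and 86.8% lay in calls, against 36.5% and 38.7% of those between narrower anchors.

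The broad pair with the most PETs joined chr12:57606467-57610394 and chr12:57630622-57638411, 26.1 kb apart near SHMT2, a mitochondrial enzyme of one-carbon metabolism, with 57 in shLUC and 76 in shBORIS. On chromosome 17, the broad anchor chr17:48071814-48076569 at DLX3, a homeobox gene, met chr17:47937247-47940668 at 135 kb with 42 and 75 PETs. On chromosome 9, chr9:139381830-139384881 beyond NOTCH1 met chr9:139518511-139526710 at 139 kb with 52 and 40. Of the other 7 of the 10 strongest broad pairs, 3 were also on chromosome 17, 2 on chromosome 9 and 2 on chromosome 3, with 74 to 126 PETs over both tables. The lowest scaled ratio of these 10 pairs was 0.683, and the highest was that of chr3:126874964-126880767 with chr3:126889284-126893712, which had 26 and 58 PETs. None passed the pair test (adjusted p from 0.464 to 1 by Fisher's exact test). The longest call between broad anchors shared by both tables joined chr17:69079267-69082450 to the SOX9 anchor across 1036 kb, with 4 PETs in each.

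Weighted by PETs, contacts of broad anchors were shorter than those of narrower ones. The median distance between midpoints, weighted by PETs, between broad anchors was 65.7 kb for shLUC and 58.9 kb for shBORIS, 98.9 and 91.1 kb between a broad and a narrower one, and 117 and 107 kb between narrower ones. Broad anchors also lie nearer to each other, and distance at equal spacing was not compared. The share of PETs under 20 kb was 23.6% in shLUC and 25.7% in shBORIS between broad anchors, and 18.3% and 19.7% between narrower ones.

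Calls between broad anchors were often found in both tables. Of the 381 in shLUC 325 were also called in shBORIS, which leaves 56 in shLUC alone and 131 in shBORIS alone. With a broad anchor at either end, 1600 calls were shared, 773 were in shLUC alone and 1281 in shBORIS alone. Over all calls 6291 were shared, 4945 were in shLUC alone and 6820 in shBORIS alone. Shared calls made up 85.3% of the broad-to-broad calls of shLUC, 67.4% of those with any broad anchor and 56.0% of all. In shBORIS these shares were 71.3%, 55.5% and 48.0%. Among calls with exactly 3 PETs, the lowest count a call can have, 68.4% of the broad-to-broad calls of shLUC were also called in shBORIS (54 of 79, exact interval 56.9 to 78.4), against 31.9% of narrower-to-narrower ones (30.4 to 33.4). For such calls of shBORIS the shares found in shLUC were 38.4% (28.1 to 49.5) and 24.9% (23.6 to 26.3). At 3 PETs the intervals did not overlap in either direction. With 4 PETs the shares were 36 of 50 (57.5% to 83.8%) and 49.5% (47.2 to 51.8) for shLUC calls, but 47.1% (35.1 to 59.4) and 40.4% (38.3 to 42.5), with overlap, for shBORIS calls. With 5 to 9 PETs they were 88.7% (82.3 to 93.4) and 74.3% (72.6 to 75.9) for shLUC calls. For shBORIS calls they were 78.7% (71.4 to 84.9) and 66.0% (64.3 to 67.6), and the intervals did not overlap in either direction. At 10 to 19 PETs they were 98.8% and 96.1% for shLUC and 92.9% and 94.8% for shBORIS. Up to 9 PETs the share was thus higher at broad calls in both tables, though with overlapping intervals for shBORIS calls of 4 PETs.

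PETs with a broad anchor at either end took a slightly larger part of the shBORIS table. There were 26423 in shLUC, 18.1% of the intrachromosomal total, and 31206 in shBORIS, 19.1%, a scaled ratio of 1.06 (1.04 to 1.08). The ratio was 1.14 (1.09 to 1.19) between broad anchors, 1.04 (1.03 to 1.06) between a broad and a narrower anchor, and 0.987 (0.979 to 0.995) between narrower ones. Scaled to all PETs the 3 ratios were 1.23, 1.13 and 1.06, so that the last one changed direction and the order did not. Set against PETs between narrower anchors, the odds ratio was 1.07 (1.05 to 1.09, two-sided Fisher's exact test of PETs, p = 4.25e-14) for any broad anchor and 1.16 (1.11 to 1.21, p = 1.86e-11 by the same exact test) between broad anchors. Those p-values take PETs as independent and hold no variation between libraries. PETs of the chromosome 10 anchor described below, which shLUC does not list, count in these and the following class ratios. Without that anchor the scaled ratio of any broad anchor was 1.06 (1.04 to 1.07) and the odds ratio 1.07 (1.05 to 1.09).

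The shift was as large for PETs that join chromosomes. With a broad anchor at either end the interchromosomal ratio was 1.07 (1.05 to 1.08) and between broad anchors 1.16 (1.09 to 1.24). Dividing the intrachromosomal by the interchromosomal ratio left 0.992 (0.971 to 1.01) for any broad anchor and 0.983 (0.912 to 1.06) between broad anchors, by a normal approximation. The larger part in shBORIS was thus measured for both kinds of partner, and a difference between the kinds was not detectable at this depth.

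The ratio was lower in the longer distance classes. For spans under 20 kb between broad anchors it was 1.24 (1.14 to 1.35), for 20 to 100 kb 1.14 (1.06 to 1.22) and for 100 to 500 kb 1.11 (1.03 to 1.20). At 500 kb to 2 Mb it was 0.988 (0.806 to 1.21) and above 2 Mb 0.920 (0.730 to 1.16), with intervals that included 1. Of the 1309 broad-to-broad PETs of shBORIS under 20 kb, 33 and 14 joined the chromosome 10 anchor described below to its broad neighbours. These pairs had 0 PETs in shLUC, which does not list that anchor, and the ratio without them was not computed. Between narrower anchors the ratio also went down with distance, from 1.06 under 20 kb to 0.873 above 2 Mb. At equal distance class the odds ratio of broad-to-broad against narrower-to-narrower PETs was 1.13 (1.08 to 1.18, Mantel-Haenszel), and that of any broad anchor 1.07 (1.05 to 1.09).

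**Figure D3:**
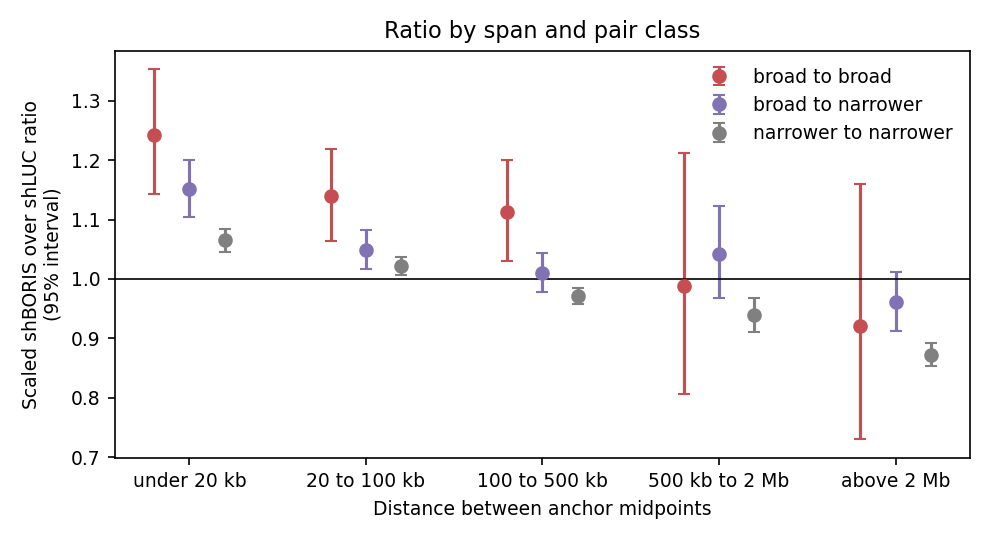
Scaled shBORIS over shLUC ratio of intrachromosomal PETs by distance between anchor midpoints, for broad-to-broad (red), broad-to-narrower (purple) and narrower-to-narrower pairs (grey), with exact 95% intervals and a line at 1. The broad-to-broad ratio goes from 1.24 under 20 kb to 0.920 above 2 Mb and the narrower-to-narrower one from 1.06 to 0.873. PETs of the chromosome 10 anchor that shLUC does not list are included.

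Depth moved with the ratio as well. Among anchors with 10 to 24 intrachromosomal PETs over both tables the ratio was 0.973 (0.879 to 1.08) at broad and 0.975 (0.966 to 0.983) at narrower anchors. At 25 to 49 PETs it was 1.01 in both, at 50 to 99 it was 1.05 (1.02 to 1.08) and 1.03 (1.02 to 1.04), and at 100 to 199 it was 1.08 (1.05 to 1.10) and 1.06 (1.03 to 1.09). With 200 or more it was 1.13 (1.09 to 1.17) at 50 broad anchors and 1.22 (1.11 to 1.34) at 8 narrower ones. In each of these 5 classes the intervals of broad and narrower anchors overlapped, and both ratios climbed with depth. These classes use the same PETs as the ratio. In classes of interchromosomal PETs, which are other PETs, the ratio was 1.02 (0.989 to 1.05) at broad and 1.01 (0.999 to 1.02) at narrower anchors with 50 to 99, and 1.08 (1.06 to 1.11) and 1.04 (1.01 to 1.06) with 100 to 199, where the intervals did not overlap. With 10 to 49 interchromosomal PETs the ratio was 1.05 (0.919 to 1.21) at broad and 0.980 (0.973 to 0.987) at narrower anchors. With 200 or more it was 1.11 (1.07 to 1.15) and 1.08 (0.960 to 1.23), and in both of these classes the intervals overlapped. The chromosome 10 anchor described below counts as broad at 100 to 199 intrachromosomal PETs and at 200 or more interchromosomal PETs. It had 0 intrachromosomal PETs in shLUC and 126 in shBORIS, and the ratios of these classes without it were not computed. The part of depth in the difference between broad and narrower anchors was not tested.

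**Figure D4:**
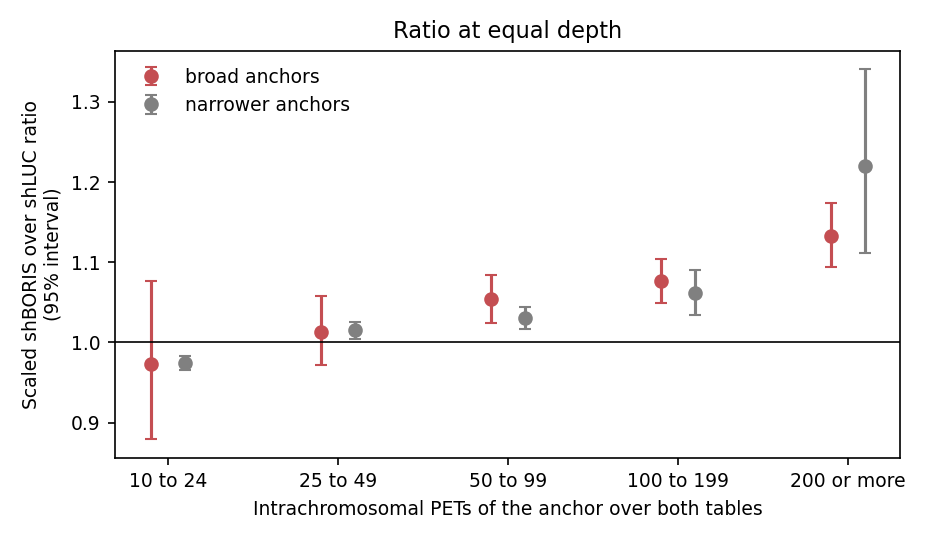
Scaled shBORIS over shLUC ratio of intrachromosomal PET ends at broad (red) and narrower anchors (grey), by the intrachromosomal PETs of the anchor over both tables, with exact 95% intervals and a line at 1. Both series climb, from 0.973 to 1.13 at broad anchors and from 0.975 to 1.22 at narrower ones, of which 8 are in the last class. The chromosome 10 anchor that shLUC does not list is included.

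By anchor, the PETs of each one with at least 10 over both tables were set against the remaining intrachromosomal PETs by Fisher's exact test, two-sided and adjusted by Benjamini-Hochberg over all anchors. That filter left 813 of the 818 broad anchors. Of these 2 passed at an adjusted p under 0.05, or 0.246%, where 0.0204% of all 19623 anchors tested passed. Without the chromosome 10 anchor described next, which shLUC does not list, 1 of 812 passed. Both of the 2 were higher in shBORIS, where 0.0153% of all anchors passed as higher and 0.0051% as lower. With interchromosomal PETs in the same test 4 of the 818 passed, where 0.014% of all anchors passed, and 11.7% had an unadjusted p under 0.05, where all gave 5.56%. In the intrachromosomal test 462 of the tested broad anchors had a ratio above 1 and 351 one below, with a median log2 ratio of 0.08, against 0.01 over all anchors tested.

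The broad anchor chr10:42383016-42386173, beside the centromere, had 0 intrachromosomal PETs in shLUC and 126 in shBORIS, and 0 and 475 interchromosomal ones. The shLUC table does not list it at all, so a count of 0 and a region left out of that table cannot be told apart, and no difference is read from its tests. Its broad neighbours chr10:42386572-42389731, 0.398 kb away, and chr10:42389829-42395064 had 20 and 36 intrachromosomal PETs in shLUC and 36 and 61 in shBORIS. Of those in shBORIS, 14 of the 36 and 33 of the 61 joined the unlisted anchor itself. The higher intrachromosomal counts of the neighbours in shBORIS thus rest on the same missing listing, and no difference is read from them. Their interchromosomal PETs were 157 and 281 in shLUC and 121 and 277 in shBORIS, so that neither neighbour was empty in shLUC or shared the change in interchromosomal PETs.

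The other was chr17:46067619-46075229, in the stretch that holds CDK5RAP3 and NFE2L1, which had 121 and 229 intrachromosomal PETs, a ratio of 1.70 (1.36 to 2.13, adjusted p = 0.0146 by Fisher's exact test). Its strongest partners had more PETs in shBORIS too. The broad anchor chr17:46079167-46083101 shared 47 and 79 PETs with it, the narrower chr17:46058786-46060970 shared 21 and 40, and the broad chr17:46086704-46094392 shared 17 and 38. Its interchromosomal PETs numbered 94 and 189, a ratio of 2.02 (1.57 to 2.62). The call was lost without pairs under 20 kb (adjusted p = 0.711, Fisher's exact test) and with an assumed dispersion of 0.1 (adjusted p = 1, negative binomial test).

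**Figure D5:**
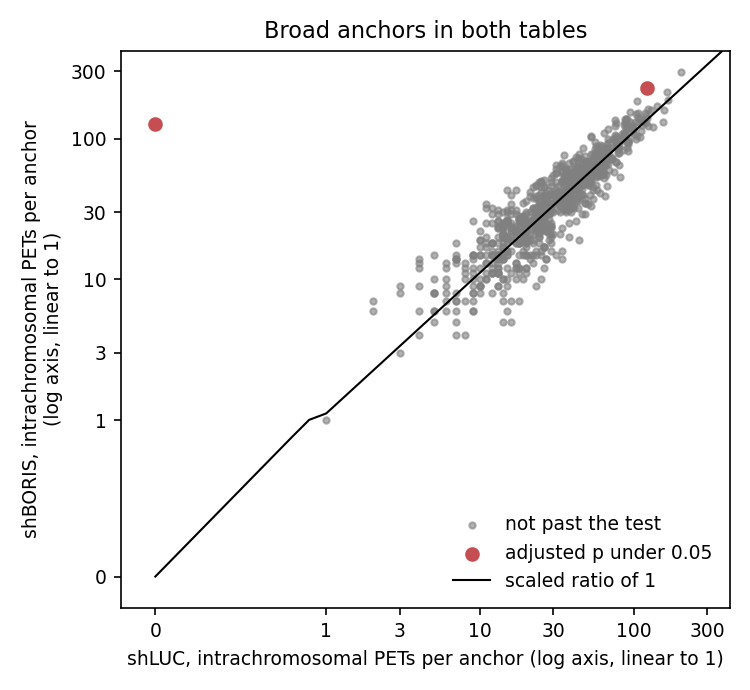
Intrachromosomal PETs of each broad anchor in shLUC (horizontal) and shBORIS (vertical), on axes that are logarithmic above 1 and linear from 0 to 1, with a line at a scaled ratio of 1, which bends where the axes change, and the 2 anchors past the test in red. One red point lies at 0 in shLUC and 126 in shBORIS and the other at 121 and 229, and the remaining anchors lie on both sides of the line.

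Other broad anchors had sizeable differences that did not pass. The smallest p-value among the other higher ones was that of chr15:78972376-78975497, with 105 and 185 PETs, a ratio of 1.58 (1.24 to 2.03, adjusted p = 0.224 by Fisher's exact test). The anchor chr6:41568985-41572051 had 35 and 76, a ratio of 1.95, while its interchromosomal PETs numbered 62 and 50. Among lower ones chr9:136808003-136811253 had 44 and 19, a ratio of 0.387 (0.213 to 0.677, adjusted p = 0.249 by Fisher's exact test), beside 42 and 32 between chromosomes. The anchor chr3:156391165-156394267 had 34 and 14, a ratio of 0.369. At an unadjusted p under 0.05 there were 90 broad anchors, or 11.1%, where all anchors tested gave 6.43%. Of the 90, 60 were higher in shBORIS (7.38%, where all gave 3.25%) and 30 lower (3.69%, where all gave 3.17%). Scaled to all PETs of each table, which adds 0.11 to every log2 ratio, 93 were higher (11.4%, where all gave 4.46%) and 22 lower (2.71%, where all gave 2.41%). Broad anchors are deeper, and within depth classes the share at broad and narrower anchors was 7.86% and 7.41% at 25 to 49 PETs, 11.6% and 8.18% at 50 to 99 and 12.6% and 13.4% at 100 to 199. In classes of interchromosomal PETs it was 10.3% and 6.46% at 50 to 99 and 11.0% and 7.79% at 100 to 199, higher at broad anchors. It was lower at broad anchors at 10 to 49, with 3.57% of 28 against 6.08%, and from 200, with 19.4% against 22.2% of 9. The squared deviation was 1.67 times that of counting error at broad anchors, 1.53 without the chromosome 10 anchor, and 1.23 at narrower ones. By intrachromosomal PETs it was 1.38 at broad and 1.29 at narrower anchors at 25 to 49, and 1.52 and 1.35 at 50 to 99. With 10 or more but below 25 it was 1.07 and 1.19, and from 200 2.94 and 2.92. At 100 to 199 it was 2.18 and 1.84, or 1.57 and 1.84 among anchors with PETs in shLUC. By interchromosomal PETs it was larger at broad anchors throughout, but from 200 it was 2.41 and 3.21 among those with PETs in shLUC. So broad anchors did not exceed narrower ones in every class.

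By pair, 1142 of the 3951 pairs with at least 10 PETs had a broad anchor, 266 of them on both sides. In the same test 2 of these passed, where 0.0506% of all pairs tested passed, and both were contacts of the chromosome 10 anchor. Its pair with chr10:42389829-42395064 counted 0 PETs in shLUC and 33 in shBORIS, and that with the narrower chr10:42395474-42397430 counted 0 and 26, which rests on the same missing listing. Without this anchor 0 of 1137 such pairs passed (lowest adjusted p = 0.467 by Fisher's exact test), with 79 at an unadjusted p under 0.05. At an unadjusted p under 0.05 there were 25 higher and 6 lower broad-to-broad pairs, or 11.7%, and 6.05% of broad-to-narrower pairs, where all pairs tested gave 5.69%.

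In the densest cluster, at 71 to 72 Mb of chromosome 17, the contacts among its 23 broad anchors numbered 460 PETs in shLUC and 641 in shBORIS, a ratio of 1.25 (1.11 to 1.41). Calls, which are not scaled, numbered 40 in shLUC and 54 in shBORIS among them, and 11236 and 13111 over all anchors. Of the 253 possible pairs of these broad anchors, 135 had at least 1 PET. At 62 to 63 Mb of chromosome 20 the 22 broad anchors shared 161 and 227 PETs, a ratio of 1.26 (1.03 to 1.56). The clusters of chromosome 9 had ratios of 1.08 at 136 to 137 Mb and 1.02 at 139 to 140 Mb, with intervals that included 1. Interchromosomal PETs of the same broad anchors had ratios of 1.18 (1.11 to 1.26), 1.03 (0.952 to 1.12), 1.03 (0.953 to 1.12) and 0.943 (0.855 to 1.04), in that order. Differences between the clusters were not tested.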

How the data were processed

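The 4 libraries, 2 per group, were read from 2 deposited tables, each named by both libraries of its group in the labels. The submitters' processing notes name cutadapt 1.8, Bowtie and the build hg19. The program that defined anchors and scored pairs is not given in the sources used here. Each pair's PET count is the authors' whole-number count, per the file headers. A hypergeometric p-value by the authors is also deposited and was not used. The Bayes probability is a deposited fraction from 0 to 1. The shBORIS table has no header, and its columns were taken to follow those of shLUC.

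Anchors of at least 3000 bp were taken from the union of both tables. Starts are printed with the first base as 1. A PET counted once for each of its anchors, and distances run between midpoints. The floor of 3 counts stands for a count of 0. Intervals are exact Clopper-Pearson intervals of 95%, or exact conditional ones for odds ratios, except the Mantel-Haenszel odds ratio and ratios of ratios, which use a normal approximation. Since PETs were amplified by PCR without molecular identifiers, intervals and floors cover counting error only. Anchor and pair tests were two-sided Fisher's exact tests of PETs against the other intrachromosomal PETs of each table, for features with at least 10 PETs, with Benjamini-Hochberg adjustment over all features tested and a threshold of 0.05. The scripts were tested on simulated data.

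Regions named were the 5 broadest, the 5 with the most PETs and with the most calls, the 10 strongest broad pairs, those past a test, those with the smallest p, those at the width limit, and chromosomes at both ends, besides regions said to be named after their values were seen. Some of the regions the rule gives are only counted, and 1 of the 5 broadest is not reported here. The densest and emptiest anchors, the longest call, the 4 densest windows and the 9 genes looked up were also picked after values were seen. The members, lists and this rule were chosen with earlier results of these data known. No hg19 annotation was used, so genes are named from the known map. Alternatives varied the width limit, call minimum, scaling, filter, assumed dispersion, span measure and PET kind. Python 3.11.15, pandas 2.3.3, SciPy 1.17.1 and matplotlib 3.10.9 were used.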

Additional observations from a re-analysis of the deposited data

Results flagged for a closer look

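Interchromosomal PETs, which the anchor test of the report did not use, were put through the same Fisher's exact test, and 4 of the 818 broad anchors passed, where 0.014% of all 35637 anchors tested passed. All 4 were higher in shBORIS, and with an unadjusted p under 0.05 there were 96 broad anchors (11.7%), where all anchors tested gave 5.56%. The chromosome 10 anchor chr10:42383016-42386173 had 0 and 475, a ratio of 159 when shLUC is set to the floor of 3 counts, but shLUC does not list this anchor, so no difference is read from its test and 3 others remain. The anchor chr1:204326759-204329945 had 25 and 78, a ratio of 3.14 (1.98 to 5.14, adjusted p = 0.00115 by Fisher's exact test), while its intrachromosomal PETs numbered 41 and 61, a ratio of 1.33 (0.883 to 2.03). The anchor chr19:11319089-11322802 had 28 and 73, a ratio of 2.62 (1.68 to 4.22, adjusted p = 0.0396 by Fisher's exact test), with 5 and 8 intrachromosomal PETs and no call in either table. The anchor chr17:46067619-46075229 had 94 and 189, a ratio of 2.02 (1.57 to 2.62, adjusted p = 0.000211 by Fisher's exact test). Both the chromosome 10 and the chromosome 17 anchor also passed the intrachromosomal test, and the other two did not.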

How the results depend on the processing

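Of 70 alternative values for 16 results, 36 stayed within counting error, kept their side of the threshold or moved a count by at most 1.5 times, 34 moved further and 0 reversed. The 2 broad anchors past the test became 1 with an assumed dispersion of 0.1, without pairs under 20 kb, without the chromosome 10 anchor and at a width limit of 4000 bp, and 4 at a limit of 2000 bp and, as an alternative added after seeing the data, with interchromosomal PETs. Scaled to all PETs, 3 anchors and 3 pairs passed. The 2 pairs became 1 at 4000 bp and 0 with the dispersion (smallest adjusted p = 0.0563, negative binomial test, 24 at an unadjusted p under 0.05), without pairs under 20 kb (smallest adjusted p = 0.0937, Fisher's exact test, 58) and without the chromosome 10 anchor (0.467, 79). The scaled ratio was 1.02 at 2000 bp, 1.09 at 5000 bp and 1.14 when scaled to all PETs. The odds ratio of any broad anchor ranged from 1.04 at 2000 bp to 1.09 and stayed above 1 in each alternative run, also without both broad anchors past the test (1.07, added after seeing the data). With at least 5 PETs per call, calls with a broad anchor numbered 1137 in shLUC and 1445 in shBORIS, the share of broad anchors with a call was 71.9% and 79.2%, and that with 5 or more calls 6.85% and 13.1%. At 4000 bp these were 1123 and 1357 calls, 94.4% and 95.1%, and 43.3% and 54.1%. Without division by width the median of PETs was 29 and 34, and interchromosomal PETs had 12.4 per kb in shLUC. The PET-weighted span of pairs with a broad anchor was 60.1 and 55.3 kb over calls alone. The broad-to-broad share was 2.56% and 2.89% without pairs under 20 kb and 0.627% and 0.728% of interchromosomal PETs. No paired analysis was possible because the libraries of a group share 1 pooled table. Differences between libraries could not be measured.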
